A study of Mus musculus with 12 samples.

Results

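Phase II conjugation enzymes attach a polar group to drugs, hormones, bile pigments and other small molecules, which makes them easier to excrete. The members described here were the rows of the nascent gene signal table whose symbol begins with Gst plus a letter and a digit, with Ugt plus a digit, or with Sult plus a digit. They numbered 48 of 21490 gene symbols, namely 20 glutathione S-transferase rows (Gst), 21 UDP-glucuronosyltransferase rows (Ugt) and 7 sulfotransferase rows (Sult). Of these, 25 exceeded 6 reads per base pair (rpbp) in at least 1 library and entered the tests, 7 of them Gst, 15 Ugt and 3 Sult.

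Nascent RNA was purified from liver nuclei of wild-type C57BL/6 mice. The mice were adult males of 3 to 6 months, and had spent 2 weeks or more in cycles of 12 hr of light and 12 hr of darkness. Livers were collected at 6 zeitgeber times (ZT, hours after lights on), ZT0, ZT4, ZT8, ZT12, ZT16 and ZT20, with 2 independent series and so 2 libraries per time point and 12 in all. All groups shared genotype and light schedule, and none was treated, so the comparison is between times of day. Signal was averaged over the exons of a gene, without regard to strand, and says how densely the chromatin-bound transcript was covered, not how much mature mRNA or enzyme was present.

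In the liver these families are most abundant in hepatocytes. Glutathione S-transferases join the tripeptide glutathione to reactive electrophiles, UDP-glucuronosyltransferases join glucuronic acid to bilirubin, steroids and drugs, and sulfotransferases use the sulfate donor PAPS to sulfate phenols and steroids. Receptors that sense foreign compounds and PAR bZIP factors under clock control are known regulators of many of these genes.

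The libraries each held 3390 to 4510 symbols over 6 rpbp, and the median deviation of the tested symbols from their own 12-library mean lay between -0.20 and 0.13 on the log2 scale. ZT8 replicate 2 stood apart by base composition. Its median deviation in the most GC-rich of 20 bins of exon GC content was lower by 1.20 (log2) than in the poorest, whereas the same difference lay between -0.58 and 0.53 in the other 11 libraries. Both ZT8 and both ZT20 libraries were sequenced in 2 lanes and the other 8 in 1 lane, so lane number and those time points cannot be told apart. The summed signal of 7 hepatocyte markers ranged from 552.5 to 1692 rpbp across libraries and was highest in ZT8 replicate 2, against 0.8 to 2.2 for the 3 cholangiocyte markers in the table and 2.4 to 8.7 for 4 leukocyte markers. Kupffer cell markers summed to 18.1 to 64.8 rpbp, endothelial markers to 12.6 to 25.7 and stellate cell markers to 8 to 12.8. The Kupffer cell and leukocyte sums were highest in ZT8 replicate 1. The endothelial sum was highest in ZT20 replicate 1, the stellate cell sum in ZT16 replicate 1 and the cholangiocyte sum in ZT4 replicate 2. No listed marker in the table was at 0 in all libraries, and the part of these markers in the results was not tested. Fewer nuclei of a cell type and less nascent RNA per nucleus cannot be told apart in such bulk samples.

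Rhythmicity was scored as F24, the share of the variance over the 12 values that a 24-hr Fourier component holds, with a one-sided exact permutation p. The rhythm call, which follows the study's rule, needed an F24 above 0.45, a permutation p below 0.05 before adjustment, and a maximum more than 1.5 times the minimum. By this rule 4 of the 25 tested members were rhythmic (16%), close to the 15.2% of all 6284 tested symbols, so the share among members was near the background. The 4 were Gstm1, Gstm6, Gstt2 and Sult1a1, of which Gstm6 passed the signal threshold only at time points where it was high. None of the 4 passed after Benjamini-Hochberg adjustment over all tested symbols, which 40 symbols (0.637%) did.

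A difference of any shape between the 6 time points was tested with limma's moderated F-test on log2(rpbp + 1). At an adjusted p under 0.05, 7 members differed (28%), beside 7.65% of all tested symbols. They were Gstm6, Gstt1, Gstt2, Sult1a1, Ugt2b36, Ugt1a7c and Ugt1a9, the last 2 of which share exons. The median F24 of the 25 members (0.227) was close to that of all tested symbols (0.222), while their median peak-to-trough difference in a fitted 24-hr cosine was 0.76 against 0.39 (log2). The members also had a higher median signal, 19.5 against 7.62 rpbp.

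**Figure D1:**
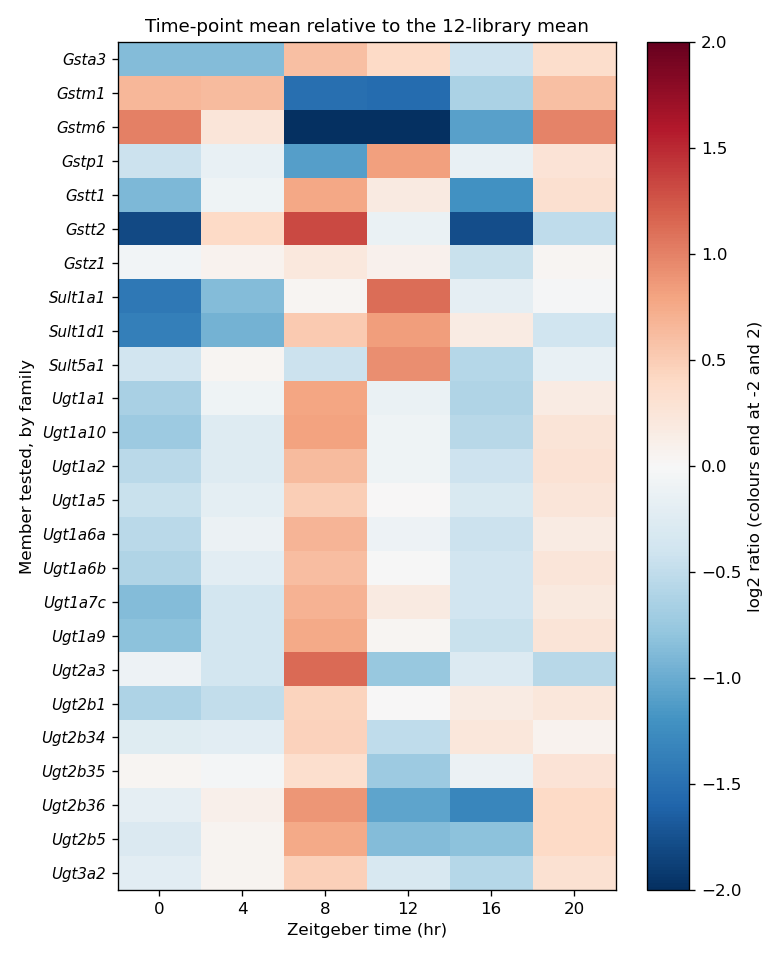
Mean of the 2 libraries at each zeitgeber time (columns, hr) relative to the 12-library mean of each of the 25 tested members (rows), as a log2 ratio from blue (lower) to red (higher). Most Ugt rows are reddest at ZT8, the 3 Sult rows at ZT12, and Gstm1 and Gstm6 are blue at ZT8 and ZT12.

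The mu-class glutathione S-transferases Gstm1 and Gstm6 had the highest F24 of the Gst members, and were low at ZT8 and ZT12 and high from ZT20 to ZT4. Gstm1 (chr3:107815175-107820891 in mm9, minus strand, protein coding) measured 11.1 and 17.7 rpbp at ZT0, 11.6 and 16.8 at ZT4, 3.3 and 3.1 at ZT8, 1.9 and 4.4 at ZT12, 10 and 1.7 at ZT16, and 14 and 13.9 at ZT20 (replicates 1 and 2). The libraries of ZT0, ZT4 and ZT20 did not overlap those of ZT8 and ZT12, and the ZT16 replicates lay apart, the higher just under the high group and the lower below all other libraries. Its F24 was 0.748 with a phase of 23.6 hr (exact permutation p = 0.00697, adjusted p = 0.145). The fitted peak-to-trough difference was 2.39 ± 0.45 (log2, SE), and the F-test missed the threshold (limma adjusted p = 0.0645).

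Gstm6 (chr3:107741766-107746667, minus strand, protein coding) lay lower, and was the member closest above the 6 rpbp threshold. It measured 4.0 and 8.4 rpbp at ZT0, 2.7 and 4.6 at ZT4, 0.5 and 0.8 at ZT8, 0.5 and 0.4 at ZT12, 2.2 and 0.7 at ZT16, and 8.7 and 3.5 at ZT20. Only 2 of its 12 values exceeded the threshold, 8.4 in ZT0 replicate 2 and 8.7 in ZT20 replicate 1. Gstm6 thus entered both tests only through time points where it was high. The deposited values carry 1 decimal, so its lowest values are coarse. The means ran from 0.45 ± 0.0707 rpbp at ZT12 to 6.2 ± 3.11 at ZT0 (SD, n = 2). F24 was 0.695 with a phase of 22.9 hr (exact permutation p = 0.00241, adjusted p = 0.0997), the cosine gave a peak-to-trough difference of 2.56 ± 0.33 (log2, SE; 3.84 with a pseudocount of 0.1), and the time points differed by the F-test (limma adjusted p = 0.0262). That F-test call was lost without ZT0 replicate 2, ZT8 replicate 2 or either ZT12 library, with an adjusted p of up to 0.0694. In the 2 replicate series taken alone the phases of Gstm6 were 21.3 and 0.35 hr, and those of Gstm1 22.2 and 0.538 hr.

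Both genes belong to a row of mu-class genes on chromosome 3, and their neighbours below the threshold are given as values. Gstm7 held 1.2 to 4.4 rpbp in the 6 libraries of ZT0, ZT4 and ZT20 and 0.1 to 0.7 in the 4 of ZT8 and ZT12. The corresponding ranges were 1.2 to 2.8 and 0.1 to 0.3 rpbp for Gstm3, 0.6 to 2.3 and 0.0 to 0.1 for Gstm2, and 1.5 to 3.2 and 0.3 to 1.1 for Gstm4. The time points were grouped as read from Gstm1 and Gstm6 in these same data, with ZT16 in neither group. How often all symbols separate in this way was not counted. The values are low and carry 1 decimal, and Gstm5 did not exceed 0.3 rpbp in any library. When the threshold was lowered to 3 rpbp, Gstm4 and Gstm7 met the rhythm criteria, as did 13.7% of the 10382 symbols then tested. Gstm4 had a phase of 23.3 hr (random permutation p = 0.00357, adjusted p = 0.137) and Gstm7 of 22.8 hr (random permutation p = 0.0186, adjusted p = 0.239). Gstm4 passed this threshold only in ZT20 replicate 1 (3.2 rpbp), and Gstm7 only in ZT4 replicate 2 (3.6) and ZT20 replicate 1 (4.4). Both entered only through time points where they were high, so these calls add no independent support. The mu-class genes resemble each other in sequence. Of the 80-base windows in their exons, 9.64% in Gstm6 and 7.19% in Gstm1 occurred elsewhere in the genome. The shares were 8.79% in Gstm2 and 2.87% in Gstm3, with none in Gstm4 and Gstm7.

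**Figure D2:**
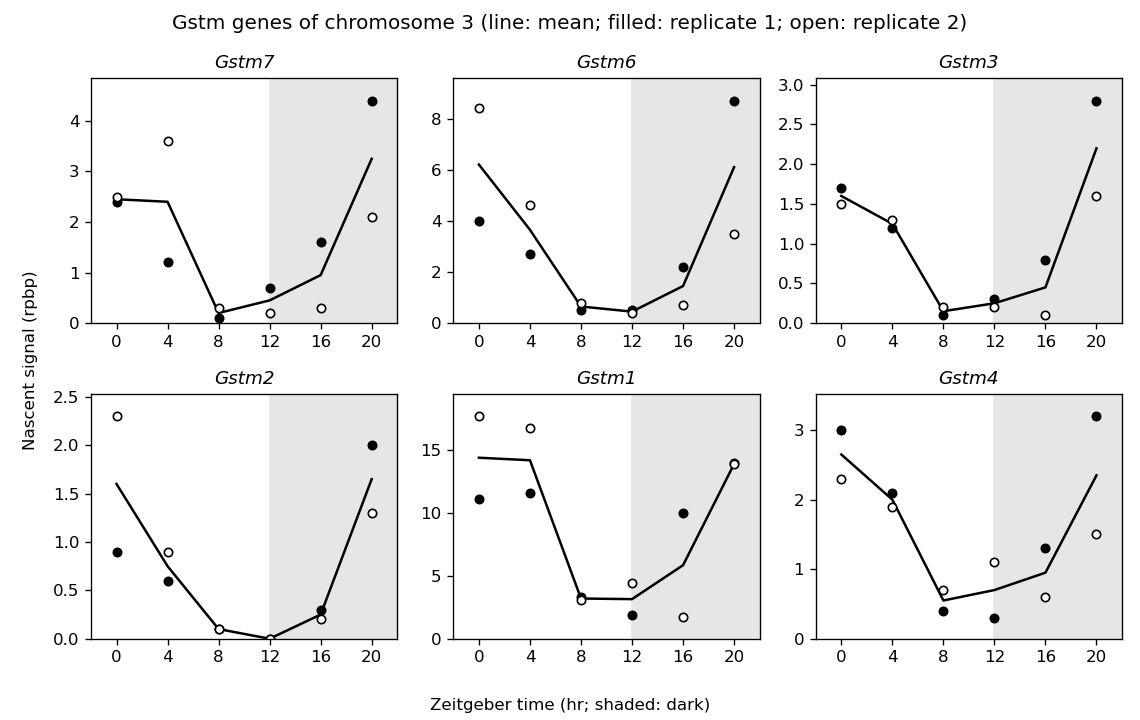
Nascent signal (rpbp, linear axes from 0, each panel on its own scale) of 6 Gstm genes against zeitgeber time (hr), in chromosome order, with the line at the mean of 2 libraries, replicate 1 filled and replicate 2 open. In every panel the 4 values at ZT8 and ZT12 lie below the 6 values at ZT0, ZT4 and ZT20. This grouping was read from Gstm1 and Gstm6 in these same data, and ZT16 is in neither group. How often all symbols separate in this way was not counted. Gstm7, Gstm3, Gstm2 and Gstm4 lie below the 6 rpbp threshold.

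The stretches before the starts of Gstm1 and Gstm6 are shown because these were the 2 rhythmic members among the mu-class genes of chromosome 3. Each is the last 100 bases before 1 of the starts listed by RefSeq (GRCm38.p6, minus strand, chr3:108017974-108018073 for Gstm1 and chr3:107943735-107943834 for Gstm6), in lower case throughout since none of the 4 motifs searched lies in them.
Gstm1: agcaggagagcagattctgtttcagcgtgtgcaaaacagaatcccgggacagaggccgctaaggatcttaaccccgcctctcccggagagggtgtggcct
Gstm6: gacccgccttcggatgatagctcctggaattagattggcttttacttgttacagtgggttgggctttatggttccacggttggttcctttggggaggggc

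The theta-class genes on chromosome 10 were highest at ZT8. Gstt2 (chr10:75294630-75297031, minus strand, protein coding) measured 2.3 and 2.6 rpbp at ZT0, 10.8 and 11.5 at ZT4, 29.5 and 13.1 at ZT8, 5.7 and 9.9 at ZT12, 3.5 and 1.5 at ZT16, and 6.6 and 5.4 at ZT20. Its 2 ZT8 libraries were the highest of the 12 although far apart, and the 4 libraries of ZT0 and ZT16 were the lowest. F24 was 0.521 with a phase of 7.51 hr (exact permutation p = 0.00717, adjusted p = 0.145), the peak-to-trough difference 2.13 ± 0.53 (log2, SE), and the F-test passed (limma adjusted p = 0.0150). The replicate series gave phases of 7.55 and 7.46 hr, and without ZT0 replicate 1 the limma adjusted p became 0.0515.

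Gstt1 (chr10:75246560-75261329, minus strand, protein coding) measured 3.2 and 4.1 rpbp at ZT0, 8.5 and 4.4 at ZT4, 12.5 and 10.8 at ZT8, 6.8 and 8.7 at ZT12, 3.3 and 2.6 at ZT16, and 10.3 and 6.7 at ZT20. It was high at ZT8 and again at ZT20, and it was not rhythmic (F24 0.263) although the time points differed (limma adjusted p = 0.0323). This call was lost in 8 of 12 fits, those without a ZT0, ZT8 or ZT12 library, ZT16 replicate 2 or ZT20 replicate 1 (adjusted p up to 0.0786). Gstt3, the member just under the threshold at up to 5.8 rpbp, had its highest means at the same 2 times (4.70 ± 1.56 at ZT8 and 3.35 ± 1.20 at ZT20, SD, n = 2), and Gstt4 was listed at 0 in every library.

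The other Gst members passed neither test. Gsta3, an alpha-class enzyme, had the highest mean signal of all 48 rows (108 rpbp). It measured 30.9 and 88.1 rpbp at ZT0, 86.3 and 32.7 at ZT4, 133.7 and 193.7 at ZT8, 100.5 and 186.2 at ZT12, 95.1 and 67.1 at ZT16, and 153.8 and 122.0 at ZT20. Its replicates lay far apart at ZT0 and ZT4, with replicate 2 the higher at ZT0 and replicate 1 at ZT4, and the F-test gave a limma adjusted p of 0.168. Gstz1, which acts in tyrosine breakdown as maleylacetoacetate isomerase, was the steadiest Gst member, with time-point means from 35.2 to 55.9 rpbp and a coefficient of variation of 0.193 over the 12 libraries. Gstp1, the pi-class enzyme, ran from 6.15 to 23.2 rpbp in its means, and 82.9% of its exon windows of 80 bases occurred elsewhere in the genome, so its signal is uncertain.

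**Figure D3:**
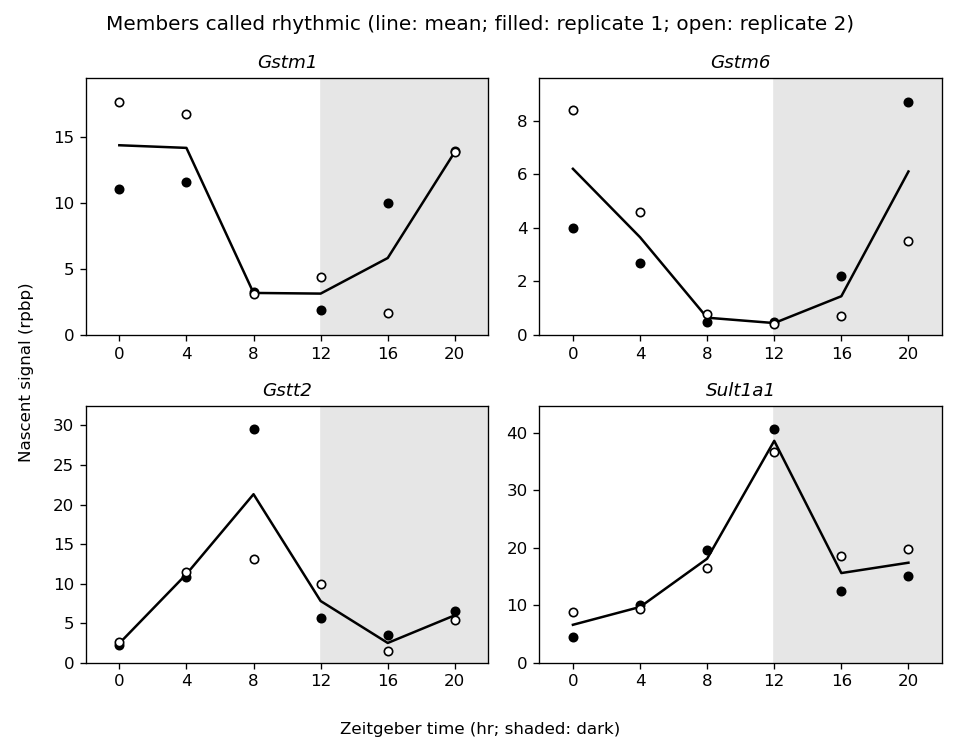
Nascent signal (rpbp, linear axes from 0) of the 4 members called rhythmic against zeitgeber time (hr), with the line at the mean of 2 libraries, replicate 1 filled and replicate 2 open. Gstm1 and Gstm6 are lowest at ZT8 and ZT12, Gstt2 is highest at ZT8 and Sult1a1 at ZT12.

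No Ugt member was called rhythmic, and 3 of 15 differed between time points. The 8 Ugt1a rows come from 1 locus on chromosome 1, in which alternative leading exons are spliced to a shared set of downstream exons, so that 43.6 to 71.6% of the exon bases of each row were also counted in another row. They are therefore not independent. All 8 had their highest mean at ZT8 and their lowest at ZT0, with a smaller rise in the means at ZT20.

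Ugt1a1 (chr1:90108534-90116577, plus strand), the bilirubin-conjugating form, was the highest of the 8. Its means went from 25.8 ± 10.7 rpbp at ZT0 to 70.1 ± 4.81 at ZT8 (SD, n = 2), a ratio of 2.72 (limma adjusted p = 0.0664). Ugt1a9 (chr1:89967354-90116577, plus strand) measured 9.3 and 14.4 rpbp at ZT0, 19.1 and 13.4 at ZT4, 37.3 and 34.0 at ZT8, 17.4 and 25.9 at ZT12, 17 and 13.9 at ZT16, and 25.8 and 24.4 at ZT20 (limma adjusted p = 0.0413). The 2 ZT8 values lay above the other 10.

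Ugt1a7c (chr1:89991576-90116577, plus strand) followed the same course at 9.0 and 13.9, 19 and 13.2, 36.3 and 31.1, 19.3 and 27.6, 16.2 and 15.6, and 24.5 and 22.6 rpbp from ZT0 to ZT20 (limma adjusted p = 0.0416). Of the other 6 rows, Ugt1a10, Ugt1a6b, Ugt1a6a, Ugt1a5, Ugt1a2 and Ugt1a1, none passed the F-test, with adjusted p from 0.0558 to 0.200 and highest-to-lowest ratios of means from 1.90 to 2.90. The calls of Ugt1a9 and Ugt1a7c were each lost in most fits that left out 1 library, 9 and 10 of 12, with adjusted p up to 0.0940 and 0.0968.

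**Figure D4:**
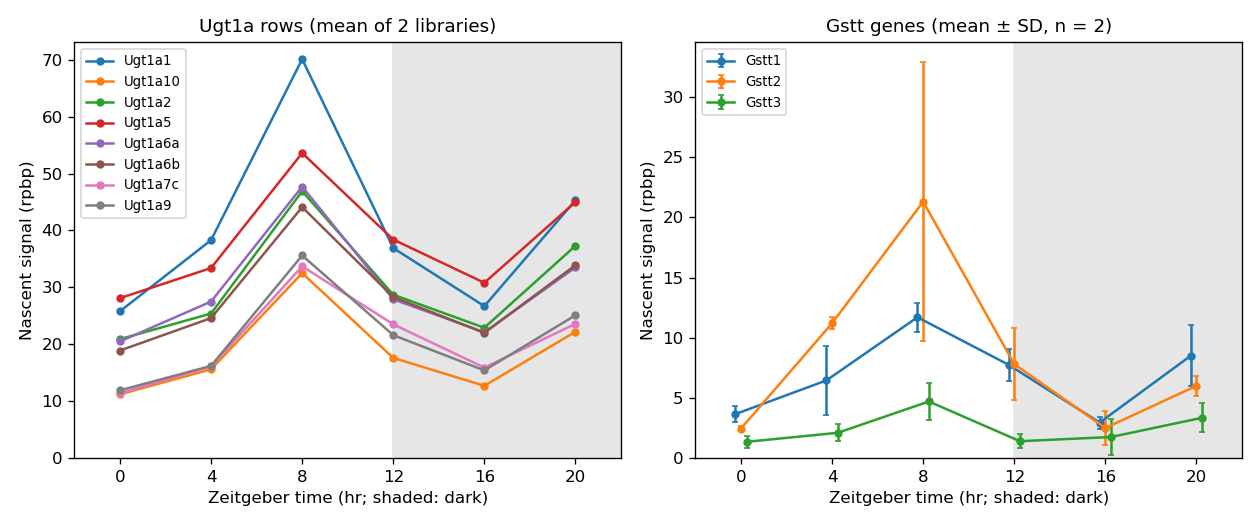
Left, mean nascent signal (rpbp) of the 2 libraries per zeitgeber time (hr) for the 8 Ugt1a rows, which share exons. Right, mean ± SD (n = 2) for Gstt1, Gstt2 and Gstt3. All 8 Ugt1a lines and the 3 Gstt lines are highest at ZT8, and the Ugt1a lines are lowest at ZT0.

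The high values at ZT8 and ZT20 coincide with the 2-lane libraries. In 14 of 25 members (56%) both of these time-point means exceeded the other 4, beside 14% of all tested symbols. The 14 members were the 8 Ugt1a rows, which share exons, and 6 others. Lane number and time of day cannot be told apart here. Within the 4 time points sequenced in 1 lane, the F-test called Sult1a1 (limma adjusted p = 0.0259) and Gstt2 (adjusted p = 0.0483) and no other member, beside 1.91% of all symbols. Between ZT8 and ZT20, which share the lane number, Gstm1 alone among the members differed (limma adjusted p = 0.0158, against 1.53% of all symbols), and Ugt1a9 and Ugt2b36 gave adjusted p of 0.438 and 0.858.

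The Ugt2 genes on chromosome 5 are AT-rich, with exon GC contents of 38.4 to 41.6% for the 6 tested members. All 6 had their highest value in ZT8 replicate 2, the library that stood apart by base composition, beside 19.9% of all tested symbols. Ugt2b36, the Ugt member with the highest mean (chr5:87494952-87521580, minus strand, 47.9 rpbp), measured 33.8 and 50.4 rpbp at ZT0, 55.8 and 47.0 at ZT4, 55.4 and 121.4 at ZT8, 19 and 27 at ZT12, 18.1 and 20.6 at ZT16, and 51.0 and 75.4 at ZT20. The 4 libraries of ZT12 and ZT16 lay below the other 8, without overlap. This grouping was read from these same values, and how often all symbols separate in this way was not counted. The lowest mean fell at ZT16 in 34.3% of all tested symbols.

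The time points of Ugt2b36 differed (limma adjusted p = 0.0309), and it was not rhythmic (F24 0.210). The call was lost without either ZT0 library, ZT4 replicate 2, either ZT12 library or ZT20 replicate 2 (limma adjusted p up to 0.0716). After the GC trend of each library was removed, the ZT8 values of Ugt2b36 became 52.2 and 74.7 rpbp and the ZT12 and ZT16 values 23.8 to 29.1, still without overlap with the other time points. The other 5 Ugt2 members passed neither test. Ugt2a3 measured 73.9 rpbp in ZT8 replicate 2 and 5.7 to 26.7 in the other 11 libraries, 11.9 in ZT8 replicate 1 among them. Time-point means ran from 16.5 to 34.5 rpbp for Ugt2b1, 18.1 to 37.9 for Ugt2b35, 9 to 17.6 for Ugt2b34 and 5.95 to 18.4 for Ugt2b5. Of the exon windows of Ugt2b5, 34.9% occurred elsewhere in the genome.

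**Figure D5:**
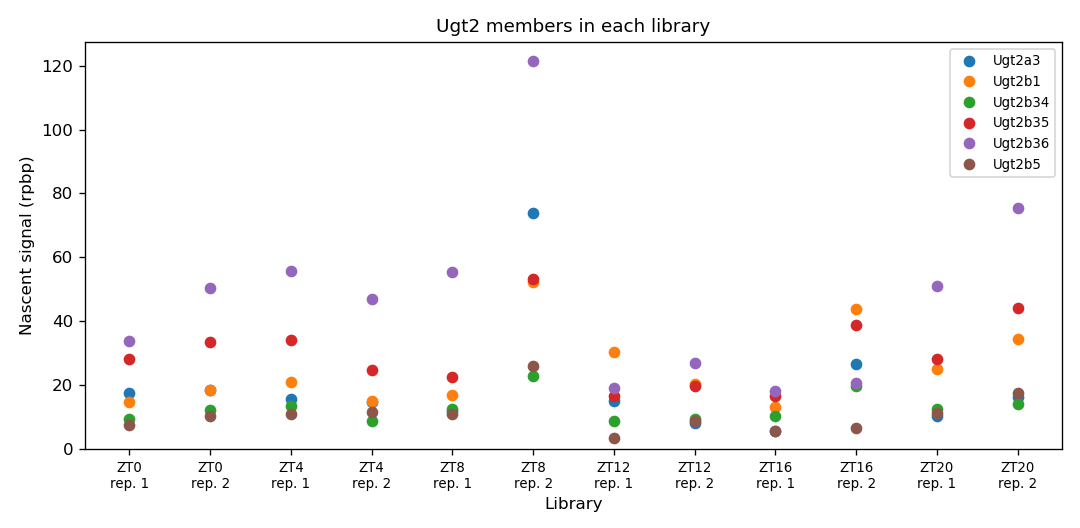
Nascent signal (rpbp, linear axis from 0) of the 6 tested Ugt2 members in each of the 12 libraries. Every gene has its highest point in ZT8 replicate 2, where Ugt2b36 reaches 121.4 and Ugt2a3 73.9 rpbp.

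Ugt3a2, which belongs to a family that uses other sugar donors, had means from 7.65 to 15.8 rpbp and passed neither test. Its neighbour Ugt3a1 stayed at or under 4.8 rpbp. At a threshold of 3 rpbp the time points of Ugt3a1 differed (limma adjusted p = 0.0182). It held 0.9 to 1.1 rpbp in the 4 libraries of ZT12 and ZT16 and 2.1 to 4.8 in the other 8, a grouping read from these same values. Ugt3a1 passed this threshold only in ZT0 replicate 2 (3.2), ZT4 replicate 1 (3.3) and both ZT20 libraries (3.7 and 4.8). It thus entered only through time points where it was high, so this call adds no independent support. The share of all symbols called by limma at this threshold is not given here. Of the exon windows of Ugt3a1, 50.9% occurred elsewhere in the genome.

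The last bases before the starts of Ugt1a9, Ugt2b36 and Ugt2b5 are shown for the motifs found in them. Ugt1a9 (RefSeq, GRCm38.p6, chr1:88070659-88070778, plus strand) holds a TTANGTAA match, in capitals, that begins 102 bases before the start, and Ugt2b36 (chr5:87092556-87092615) and Ugt2b5 (chr5:87140341-87140400, both minus strand) hold AGGTCA, in capitals, 25 and 22 bases before theirs.
Ugt1a9: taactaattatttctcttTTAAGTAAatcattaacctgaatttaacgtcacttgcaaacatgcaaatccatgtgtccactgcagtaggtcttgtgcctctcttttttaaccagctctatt
Ugt2b36: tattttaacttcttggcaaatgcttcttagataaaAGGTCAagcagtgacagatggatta
Ugt2b5: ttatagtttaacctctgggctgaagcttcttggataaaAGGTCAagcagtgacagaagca

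Sult1a1, the phenol sulfotransferase, was the Sult member with the highest mean and the member with the smallest p in both tests. It lies at chr7:133816380-133819871 (minus strand, protein coding) and measured 4.4 and 8.8 rpbp at ZT0, 10 and 9.4 at ZT4, 19.6 and 16.5 at ZT8, 40.6 and 36.6 at ZT12, 12.5 and 18.6 at ZT16, and 15.1 and 19.8 at ZT20. Both ZT12 values lay far above the other 10, the highest of which was 19.8, and the 4 libraries of ZT0 and ZT4 were the lowest. The mean at ZT12, 38.6 ± 2.83 rpbp, was 5.85 times that at ZT0, 6.60 ± 3.11 (SD, n = 2).

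F24 of Sult1a1 was 0.642 with a phase of 12.5 hr (exact permutation p = 0.00236, adjusted p = 0.0997). The peak-to-trough difference was 1.88 ± 0.36 (log2, SE) and the time points differed (limma adjusted p = 0.0122). The replicate series taken alone gave phases of 11.8 and 13.3 hr, and no left-out library ended either call.

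The 100 bases from 200 to 101 before the start of Sult1a1 (RefSeq, GRCm38.p6, chr7:126676519-126676618, minus strand) are shown with their TTANGTAA match in capitals, which begins 197 bases before the start.
Sult1a1: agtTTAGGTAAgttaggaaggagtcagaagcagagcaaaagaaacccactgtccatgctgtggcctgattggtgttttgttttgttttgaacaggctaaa

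The other 2 tested Sult members also had their highest means at ZT12, without passing either test. Sult1d1, which sulfates catecholamines, had means from 1.90 ± 1.41 rpbp at ZT0 to 8.75 ± 2.05 at ZT12, with replicates of 0.8 and 10.2 rpbp at ZT16 (F24 0.432, exact permutation p = 0.0933). Sult5a1 had means from 5.35 ± 1.91 at ZT16 to 15.1 ± 2.40 at ZT12 (SD, n = 2 each, limma adjusted p = 0.140). The 4 remaining Sult rows, Sult1b1, Sult1c2, Sult1e1 and Sult2b1, did not exceed 1.5 rpbp.

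By time of day, 19 of the 25 members had their highest mean at ZT8, 4 at ZT12 and 2 at ZT0, whereas 24% of all tested symbols were highest at ZT8 and 27.5% at ZT12. With the Ugt1a rows set aside, 11 of the other 17 were highest at ZT8. Without ZT8 replicate 2 the 19 became 11, namely the 8 Ugt1a rows and 3 others, beside 18.4% of all symbols. After removal of the GC trend 16 members were highest at ZT8, beside 22.2% of all symbols. The lowest mean fell at ZT0 in 13 members, the 8 Ugt1a rows among them, and at ZT0 in 9.66% of all symbols.

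The 23 members that did not reach the threshold included 7 that never exceeded 1 rpbp. Just outside it were Gstm7 at 4.4, Ugt3a1 at 4.8 and Gstt3 at 5.8 rpbp, and just inside it Gstm6 at 8.7, Sult1d1 at 11.1 and Gstt1 at 12.5 rpbp in their highest library. Several rows of this kind, such as Ugt8a, which makes galactosylceramide in myelinating cells, and Sult1e1, the estrogen sulfotransferase, stayed at or below 0.3 rpbp.

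The 4 motifs were searched on both strands in the 250 bases before each start that RefSeq lists, for the 22 of 25 tested members with an entry, and in all 32851 such windows. TTANGTAA covers the site of the PAR bZIP factors DBP, TEF and HLF but is looser, since it allows any base at N. It occurred in Sult1a1, Ugt1a9 and Ugt2b1, and in 2.06% of all windows. The printed matches read TTAGGTAA in Sult1a1 and TTAAGTAA in Ugt1a9. They were not shown to be sites of these factors, and binding was not tested. AGGTCA, the core hexamer of many nuclear receptor sites, occurred in Ugt1a7c, Ugt1a9, Ugt2b35, Ugt2b36 and Ugt2b5, and in 14% of windows. The antioxidant response core TGACNNNGC occurred in Gsta3 and in 10.2% of windows. The E-box CACGTG, bound by the clock activators, occurred in no member and in 6.02% of windows.

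Among 54 listed genes that supply cofactors, carry out other conjugations, export conjugates or regulate the members, 39 were tested. By the F24 rule 11 were rhythmic, of which Dbp alone kept an adjusted p under 0.05, and by the F-test 7 differed between time points, beside the 15.2% and 7.65% of all tested symbols given above. Among the regulators, Dbp (phase 8.38 hr, F24 0.733, exact permutation p = 0.000205, adjusted p = 0.0397) and Tef (10.1 hr, 0.859, exact permutation p = 0.000534, adjusted p = 0.0578) were highest at ZT8, at 46.5 ± 5.59 and 48.3 ± 1.98 rpbp (SD, n = 2), and both passed the F-test. Their partner Hlf, with means from 5.25 to 10.8 rpbp, passed neither test.

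Nr1i2, the pregnane X receptor, had a phase of 12.3 hr, beside 12.5 hr for Sult1a1. Nr1i2 measured 49.1 ± 0.283 rpbp at ZT12 and 17.5 ± 5.23 at ZT0 (SD, n = 2). It met the rhythm rule narrowly (F24 0.461, exact permutation p = 0.0425, adjusted p = 0.284) and passed the F-test (limma adjusted p = 0.0325). A link between Nr1i2 and Sult1a1 was not tested, and 27.5% of all tested symbols had their highest mean at ZT12. Ppara was rhythmic with a phase of 8.08 hr and Nfe2l2, the regulator of antioxidant genes, with 3.09 hr. Nr1i3, the constitutive androstane receptor, passed neither test at means of 91.2 to 229 rpbp, and Ahr passed neither either.

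On the cofactor side, Gclc, which limits glutathione synthesis, was rhythmic with a phase of 23.8 hr (exact permutation p = 0.0309, adjusted p = 0.248). No other of the 8 tested cofactor genes was called rhythmic, and Gclc did not pass the F-test (limma adjusted p = 0.128). The phases of Gstm1 and Gstm6 were 23.6 and 22.9 hr, and a link with Gclc was not tested. Gclc had its highest mean, 93.1 ± 7.07 rpbp, at ZT20 and its lowest, 35.5 ± 4.45, at ZT16 (SD, n = 2). The lowest means of Gstm1 and Gstm6 fell at ZT12. Papss2, which makes the sulfate donor, differed between time points (limma adjusted p = 0.00795), from 5.85 ± 0.778 rpbp at ZT16 to 19.1 ± 0.636 at ZT8. Ugp2, which makes UDP-glucose, did so too (adjusted p = 0.0219). The exporters Abcc2 (phase 6.15 hr) and Abcc3 (1.95 hr) were rhythmic, as were the methyltransferase Inmt (7.14 hr), the epoxide hydrolase Ephx1 (3.21 hr) and the sulfatase Arsa (5.09 hr). Inmt and the methyltransferase Nnmt differed between time points by the F-test.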

How the data were processed

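Nascent RNA was sequenced from 12 mouse liver libraries with reads of 80 bases. Per the labels and the study's methods, the authors aligned reads to mm9 with TopHat (base calling with CASAVA 1.7), kept unique alignments and deposited a signal in rpbp, the exon coverage per base of each gene symbol scaled to equal library depth, with 1 decimal. Depth per gene is not given in the table, so no interval for counting error was computed, and 2 libraries per time point limit the precision. The authors' F24 score, phase and p-value columns in the same table were not used.

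After 27919 blank lines were dropped, all 6284 symbols over 6 rpbp in at least 1 library were fitted. F24 was computed on linear values, and its p by enumerating all 1247400 distinct assignments (smallest possible p 1.6e-06). In alternative settings 100000 random permutations were drawn, or all 720 orders for 1 replicate series. limma 3.58.1 in R 4.3.3 gave F-tests and cosine fits on log2(rpbp + 1), with Benjamini-Hochberg adjustment. Fold changes on this scale understate the change of low genes. Scripts in Python 3.11.15 were tested on simulated data.

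Groups came from the sample titles. Every member over 6 rpbp was named, with 12 values for members passing either test and for the highest of each family. Other genes were named where a listed support gene passed a test or as a regulator. Members and gene lists were chosen with earlier results of these data known. Coordinates are mm9, counted from 1. Strand, class and exon GC content came from GENCODE M1 on NCBIM37 (GC for 95.4% of tested symbols), and promoter bases from RefSeq (GRCm38.p6). The alternatives covered thresholds, scaling, GC content, pseudocount, replicate and lane blocks, and left-out libraries.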

Additional observations from a re-analysis of the deposited data

How the results depend on the processing

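The 4 rhythmic members stayed called in each of the 12 fits that left out 1 library, with log2 values, rescaled libraries, the GC trend removed and a replicate block, and these settings gave 4 to 5 rhythmic members. Gstm6 was not tested at a threshold of 12 rpbp or with a threshold on the mean. A lane block gave 10 rhythmic members (19.2% of all symbols), adding Gstt1 and 5 Ugt1a rows. Replicate series 1 alone gave 0 and series 2 alone 2 (Gstm6 and Sult5a1), each with only 6 values. An adjusted permutation p under 0.05 left 0, against 4 members with an unadjusted p under 0.05 and 7 by limma.

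The 7 members that differed between time points became 2 without a filter (Gstp2 and Ugt3a1) and 3 with cosine terms (Gstm1, Gstm6 and Sult1a1). They became 2 within the 1-lane time points (1.91% of all symbols) and 1 between ZT8 and ZT20 (1.53%), a comparison chosen after seeing the data. The cause of these changes was not tested. Gstp2 did not exceed 1.2 rpbp, and 82.8% of its exon windows occurred elsewhere in the genome. Where no share of all symbols is printed for a setting, whether the whole set of symbols moved likewise was not tested. With 1 library left out the count ran from 2 to 10. It was 2 without either ZT12 library (Gstt2 and Sult1a1), without ZT0 replicate 1 (Gstm6 and Sult1a1) or without ZT0 replicate 2 (Gstt2 and Sult1a1), 3 without ZT8 replicate 2, and 4 without ZT4 replicate 2, ZT8 replicate 1, ZT20 replicate 1 or ZT20 replicate 2. Sult1a1 was the 1 member called in all 12 (adjusted p up to 0.0488). Gstt2 was called in 11 (up to 0.0515) and Gstm6 in 8 (up to 0.0694). A replicate block gave 4 rhythmic members and 5 that differed, without Ugt1a7c (adjusted p = 0.0541) and Ugt1a9 (0.0537). Deviations of same-numbered libraries correlated at -0.117 to 0.32 between time points, over 0.1 in 5 of 15 pairs, which was not enough to treat the numbers as pairs, although replicate 2 had the lower signal of GC-rich relative to GC-poor genes at all 6 time points. With a pseudocount of 0.1 the peak-to-trough difference of Gstm6 was 3.84 in place of 2.56 (log2). Over all alternatives and single members, 529 of 546 rhythm calls stayed on their side of the threshold, most of them of members never called, and 474 of 548 time-point differences did, with 66 calls lost.

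With 2 libraries per time point, differences such as that of Gsta3 were not detectable above the spread between replicates.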
